A study of Caenorhabditis elegans with 9 samples.

Results

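The genes described here are the fatty acid desaturases fat-1, fat-2, fat-3, fat-4, fat-5, fat-6 and fat-7 and the fatty acid elongases elo-1, elo-2 and elo-5 of the nematode Caenorhabditis elegans. They were taken as every probe set whose gene symbol in the platform annotation was exactly one of these names, which gave 10 genes with 1 probe set each, out of 17118 genes measured by a probe set that names a single gene. Messenger RNA of whole animals labelled as young adults was measured on 9 one-colour Affymetrix arrays, 3 per strain. Strain MT14769 is mutant in prg-1 (allele n4357) and prg-2 (allele n4358), strain SX9 is mutant in the same genes (prg-1 allele n4503, prg-2 allele nDf57), and N2 is the laboratory wild type. The double mutants are called n4357 n4358 and n4503 nDf57 by their alleles. prg-1 codes for the Piwi protein that binds piRNAs in the germline, and prg-2 is its near copy. Each array held RNA from a pellet of pooled animals, so the values average over all tissues, and a lower share of a tissue cannot be told apart from less RNA per cell. Values are expression levels on the log2 scale, on which 1 unit is a factor of 2, as the authors made them with RMA.

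Desaturases place double bonds into fatty acyl chains, and elongases lengthen the chains. In C. elegans the pathway starts from palmitic acid taken from bacteria or made by the acetyl-CoA carboxylase POD-2 and the fatty acid synthase FASN-1. ELO-2 lengthens palmitic to stearic acid, FAT-5 desaturates palmitic acid, and FAT-6 and FAT-7 turn stearic acid into oleic acid. FAT-2 turns oleic into linoleic acid, FAT-1 adds the omega-3 double bond, and FAT-3, ELO-1 and FAT-4 act in turn to produce the long polyunsaturated fatty acids of membranes and of eicosanoid signals. ELO-5 stands apart from this line, since it makes branched-chain fatty acids that the animal needs for growth. These enzymes work mainly in the intestine and the hypodermis.

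Most of these genes gave strong signals. Over the 9 arrays 8 of the 10 had a mean level between 9.90 log2 for fat-3 and 11.62 log2 for elo-5, which places them between the 96.2 and the 98.8 percentile of all probe sets. fat-7 averaged 8.38 log2 (90.8 percentile) and fat-5 averaged 6.26 log2 (73.1 percentile). All 10 passed the filter on low levels at the 30th percentile. The probe sets of fat-6 and elo-5 have names that mark probes shared with related sequences, and fat-6 has a close relative in fat-7, so their signals may not come from 1 gene alone. By the gene order of the reference assembly WBcel235, 8 of the 10 genes lie on chromosome IV, while fat-5 and fat-7 lie on chromosome V. fat-1 and fat-2 are neighbours with 0 protein-coding genes between them, as are fat-3 and fat-4, and elo-5 lies 3 protein-coding genes from its relative elo-6.

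Array medians lay between 4.76 and 4.83 log2. Of 27 measured intestine markers 24 lay above the median probe set, at 4.82 log2, as did 16 of 20 hypodermis markers, with the intestinal esterase ges-1 at 8.34 log2 and the cuticle collagen rol-6 at 10.06 log2. In each strain the array lowest in the mean of 29 moulting genes was picked: n4357 n4358 replicate 3, n4503 nDf57 replicate 1 and wild type replicate 2. These arrays also stood apart on the main axis of variation inside the groups, which carried 59.8% of that variation. Their scores on it were 0.58, 0.50 and 0.28, and those of the other 6 ran from -0.32 to -0.12. The moulting mean, by which they were picked, was -0.67, -0.61 and -0.55 log2 relative to all arrays, whereas on the other 6 it was 0.22 to 0.45. The adult cuticle collagen col-19 stood at 6.04, 6.72 and 7.29 log2 on the same arrays and at 3.42 to 4.80 log2 on the other 6, below the median probe set there. Of the yolk protein genes, also adult markers, vit-6 stood at 6.49, 7.47 and 7.60 log2 on the same arrays and at 5.36 to 6.83 log2 on the other 6. vit-2 lay below the median probe set on all 9 arrays, at 2.59 to 3.77 log2. The arrays therefore differed in moulting and adult markers within each strain, and results are also given without these 3 arrays. In the mutants prg-1 stood at 6.74, 7.94 and 5.47 log2 (n4357 n4358) and 7.50, 6.72 and 7.07 log2 (n4503 nDf57), against 6.93, 6.13 and 5.40 log2 in wild type; the position of its probes relative to the mutations was not used here, and this checks no label. The labels do not tie replicates to separate cultures, and p-values therefore cover only the spread among the arrays, which may be technical.

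The first comparison asks whether the genes differ in animals mutant for both prg genes, taking the unweighted mean of both mutants against wild type. No gene of the family passed limma's test after Benjamini-Hochberg adjustment over 22548 probe sets (0 of 10; adjusted p = 0.999 for each), and the share called among all probe sets was 0% as well, in both directions. Differences were positive for 5 genes and negative for 5, where 56.5% of all probe sets were positive and 43.5% negative, with a median of 0.01 log2, against 0.02 log2 over all probe sets. The median size of a difference, sign aside, was 0.09 log2 both in the family and over all probe sets. At an unadjusted p under 0.05 there was 1 of 10, fat-7, where 3.61% of all probe sets passed in either direction and 1.73% passed as lower. With array numbers of 6 and 3 the exact permutation test has 84 splits and cannot go below 0.0119.

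**Figure D1:**
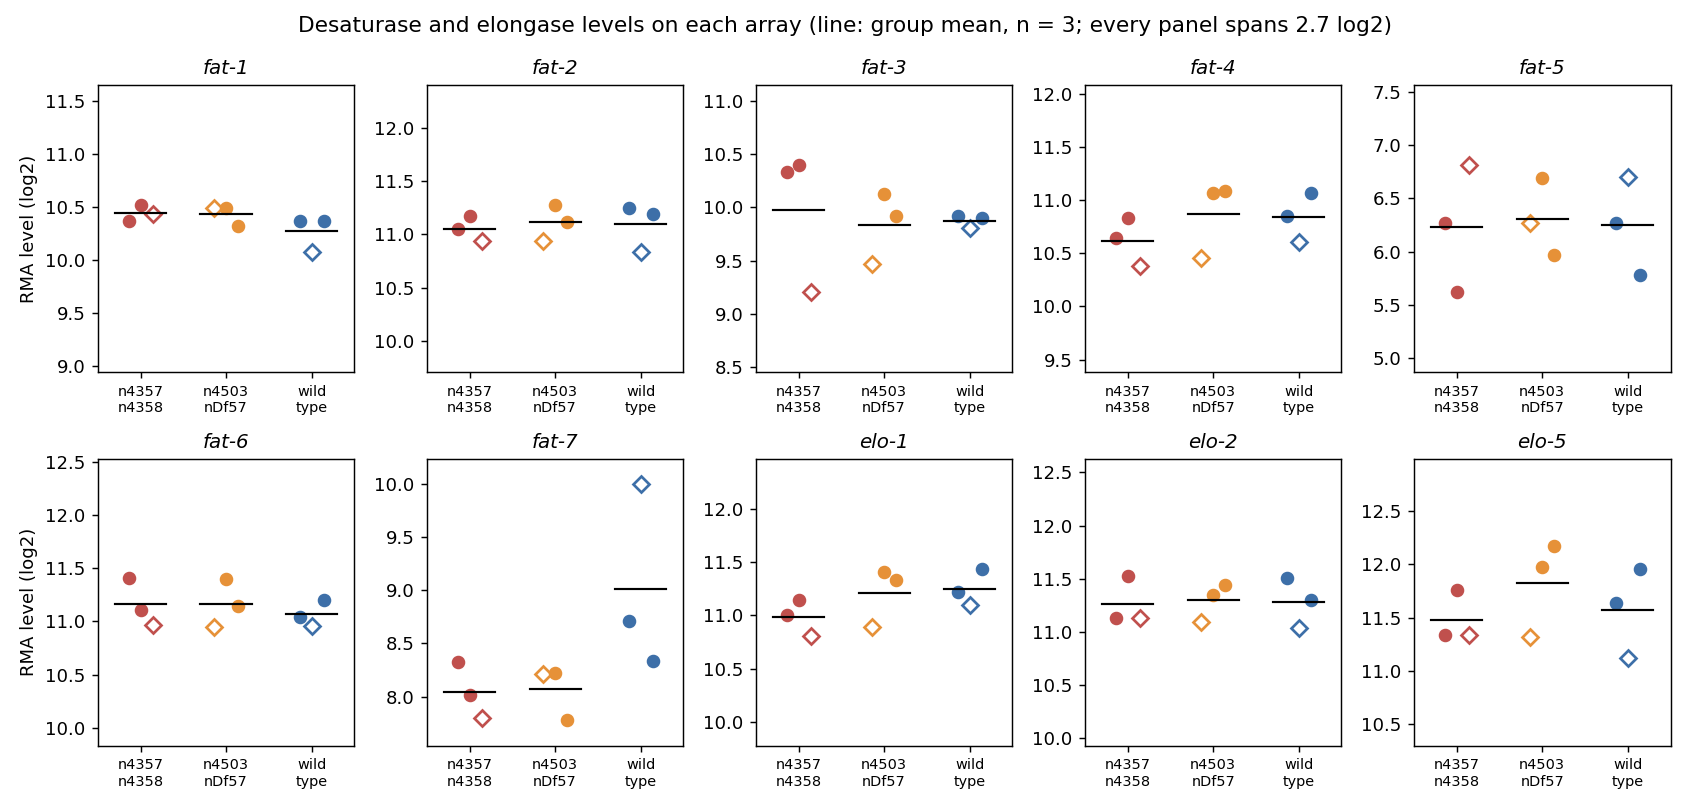
RMA level (y axis, log2) of each of the 10 genes on every array, by strain (x axis: n4357 n4358, n4503 nDf57, wild type). Points are arrays, open diamonds the 3 arrays that stand apart, lines group means, and every panel has the same span. fat-7 is the only gene whose 6 mutant arrays, at 7.78 to 8.32 log2, all lie below the wild-type arrays, and in most panels the open diamond is the lowest point of its group.

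Among the enzymes that make oleic acid, fat-7 gave the widest difference. fat-7 stood at 8.32, 8.02 and 7.80 log2 in n4357 n4358 and at 8.21, 8.22 and 7.78 log2 in n4503 nDf57, against 8.71, 9.995 and 8.34 log2 in wild type. All 6 mutant arrays lay below the wild-type arrays, by a margin of only 0.02 log2 between the highest mutant and the lowest wild-type array, and wild type replicate 2 was far above the rest. Such a full separation downward occurred in 0.803% of all probe sets. The mean difference of fat-7 was -0.96 log2 (SE 0.33, 95% confidence interval -1.72 to -0.20), a level 1.94-fold lower. Exact two-sided permutation tests were run on the 10 family genes and also on the genes of the 6 lists described below. The exact permutation p of fat-7, like that of acs-1 in those lists, was 0.0119, the smallest these array numbers can give and unadjusted. limma gave p = 0.0195 unadjusted, rank 319 among all probe sets, and 0.999 adjusted. The size rested on wild type replicate 2: without it the difference of fat-7 was -0.47 log2 (SE 0.19), and without the 3 arrays that stand apart -0.44 log2 (SE 0.18). Over all alternatives it stayed negative, from -1.29 log2 without wild type replicate 3 to -0.44 log2. As all mutant arrays lay below all wild-type arrays, leaving arrays out could not turn the sign of the difference. Wild type replicate 2 also had the highest mean of vitellogenins, at 1.42 log2 relative to all arrays, of major sperm proteins, at 1.43 log2, and of intestine markers, at 0.19 log2. Over the groups, 22 of 22 measured major sperm protein genes and 5 of 5 vitellogenin genes had negative differences between both mutants and wild type. Their medians were -1.34 and -0.48 log2. Of the muscle markers 29 of 32 had positive differences, with a median of 0.13 log2. Over all probe sets 43.5% were negative and 56.5% positive. Genes of one list were read on the same arrays and are not independent observations, so these counts carry no test. None of these genes passed limma's adjusted test. At an unadjusted limma p under 0.05 there were 0 of 22 sperm protein genes, 2 of 5 vitellogenin genes and 3 of 32 muscle markers, against 3.61% of all probe sets. The sperm protein mean ran from -2.21 to 1.06 log2 in n4357 n4358, -1.45 to 0.38 in n4503 nDf57 and 0.34 to 1.43 in wild type. The vitellogenin mean ran from -0.74 to 0.17 log2 in n4357 n4358, -0.72 to 0.59 in n4503 nDf57 and -0.57 to 1.42 in wild type. With the vitellogenin mean as a covariate the fat-7 difference was -0.74 log2 (SE 0.38), and with the sperm protein mean -0.77 log2 (SE 0.39). The 27 intestine markers, taken as a mean, ran from -0.07 to 0.08 log2 in n4357 n4358, -0.02 to 0.04 in n4503 nDf57 and -0.15 to 0.19 in wild type. Sperm protein and vitellogenin levels were lower in the mutants on average, so the covariate fits cannot tell them apart from strain. The part of these markers, and of muscle and intestine markers, in the result was not tested.

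**Figure D2:**
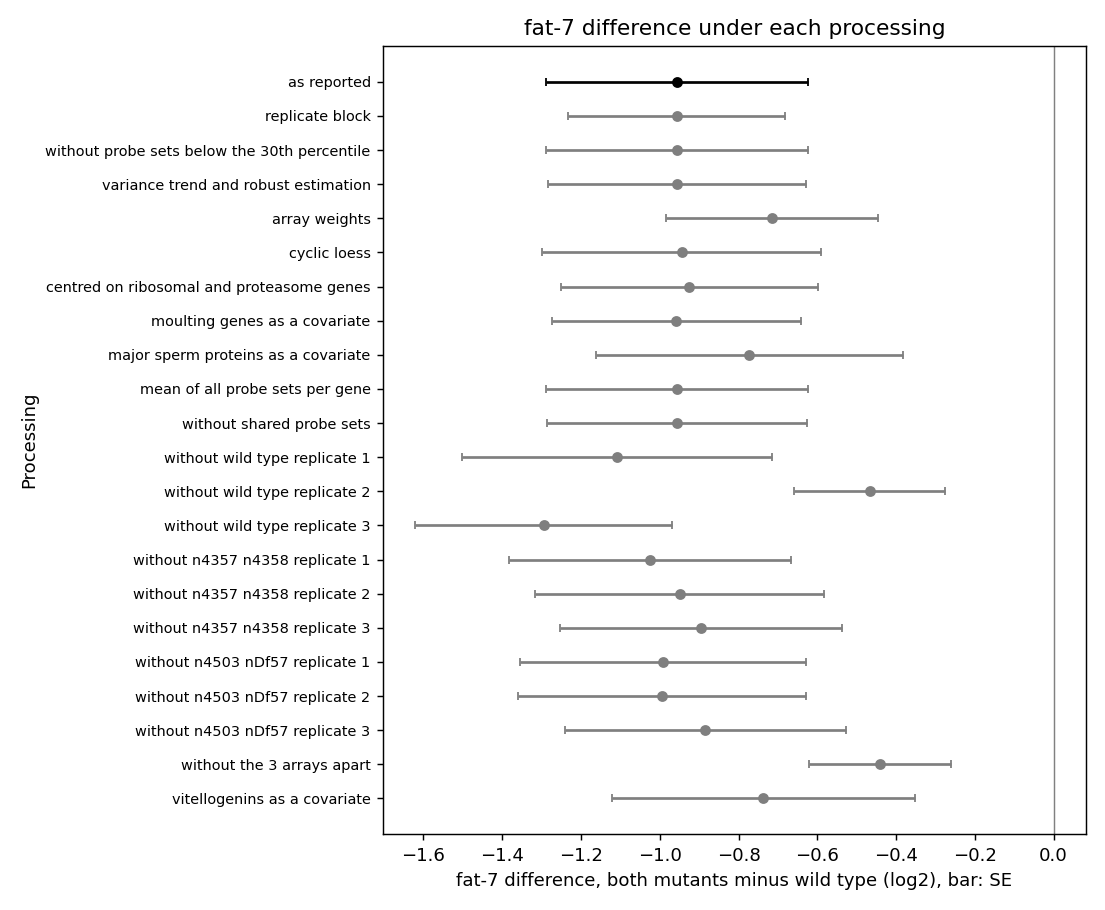
Difference of fat-7 between both mutants and wild type (x axis, log2; bars are the SE) under each processing choice (y axis). The value stays below 0 throughout and is smallest in size without wild type replicate 2, at -0.47 log2, and without the 3 arrays that stand apart, at -0.44 log2. Leaving arrays out cannot turn its sign, since all mutant arrays lie below all wild-type arrays.

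fat-6, the other stearoyl-CoA desaturase, stood at 11.41, 11.11 and 10.97 log2 in n4357 n4358 and at 10.95, 11.40 and 11.15 log2 in n4503 nDf57, against 11.04, 10.95 and 11.20 log2 in wild type. The groups of fat-6 overlapped throughout, and the difference was 0.10 log2 (SE 0.14, interval -0.21 to 0.41, exact permutation p = 0.441). Single arrays moved it from 0.037 log2 without n4357 n4358 replicate 1 to 0.17 log2 without wild type replicate 3. Whether fat-6 and fat-7 differ in their response was not tested. The palmitic acid desaturase gene fat-5 stood at 6.27, 5.62 and 6.82 log2 in n4357 n4358, at 6.27, 6.69 and 5.97 log2 in n4503 nDf57, and at 6.27, 6.70 and 5.78 log2 in wild type. It spread from 5.62 to 6.82 log2 inside n4357 n4358 alone, so that the difference of 0.02 log2 (SE 0.30, interval -0.66 to 0.70, exact permutation p = 0.988) has an interval that reaches well to both sides of 0. An identical fat-5 value of 6.27 on 3 arrays is a common feature of these data, in which 41.6% of probe sets repeat a value exactly on several arrays. elo-2, which supplies stearic acid, stood at 11.13, 11.52 and 11.13 log2 in n4357 n4358 and at 11.10, 11.35 and 11.44 log2 in n4503 nDf57, against 11.51, 11.03 and 11.30 log2 in wild type. Its group means lay within 0.03 log2 of each other, with a difference of -0.0016 log2 (SE 0.15, interval -0.33 to 0.33, exact permutation p = 0.988).

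Among the genes of polyunsaturated fatty acid synthesis, the group means of the strains lay closest for fat-2. fat-2, which commits oleic acid to this branch, stood at 11.05, 11.17 and 10.94 log2 in n4357 n4358 and at 10.94, 11.28 and 11.12 log2 in n4503 nDf57, against 11.25, 10.83 and 11.20 log2 in wild type. The fat-2 difference was -0.01 log2 (SE 0.13, interval -0.30 to 0.27, exact permutation p = 0.917). fat-1, the omega-3 desaturase, had the second smallest p of the family. It stood at 10.37, 10.51 and 10.43 log2 in n4357 n4358 and at 10.49, 10.49 and 10.32 log2 in n4503 nDf57, against 10.37, 10.08 and 10.37 log2 in wild type. Here 1 mutant array lay below 2 of the wild-type arrays, and n4357 n4358 replicate 1 had exactly the value of those 2, a repeat like that of fat-5. The fat-1 difference was 0.16 log2 (SE 0.10, interval -0.06 to 0.39, exact permutation p = 0.0833). It shrank to 0.07 log2 without wild type replicate 2 and to 0.05 log2 without the 3 arrays that stand apart.

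fat-3 varied widely inside the mutant strains. It stood at 10.33, 10.40 and 9.20 log2 in n4357 n4358 and at 9.47, 10.13 and 9.92 log2 in n4503 nDf57, while wild type stayed at 9.92, 9.81 and 9.90 log2. The spread of fat-3 was 0.67 log2 (SD) in n4357 n4358 and 0.33 in n4503 nDf57, against 0.06 in wild type. The lowest array of either mutant was the one that stands apart. The mean difference was 0.03 log2 (SE 0.27, interval -0.58 to 0.65, exact permutation p = 0.905). Without the 3 arrays that stand apart the fat-3 difference was 0.29 log2 (SE 0.09), and it did not pass limma's adjusted test.

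fat-4 and elo-1, which act on the same chain of polyunsaturated fatty acids, had matching profiles. fat-4 stood at 10.64, 10.83 and 10.38 log2 in n4357 n4358 and at 10.46, 11.06 and 11.09 log2 in n4503 nDf57, against 10.85, 10.61 and 11.06 log2 in wild type. elo-1 stood at 11.001, 11.15 and 10.81 log2 in n4357 n4358 and at 10.89, 11.41 and 11.33 log2 in n4503 nDf57, against 11.22, 11.10 and 11.44 log2 in wild type. For both genes the groups overlapped, and the lowest array of each strain was the one that stands apart. The differences were -0.10 log2 for fat-4 (SE 0.18, interval -0.51 to 0.31, exact permutation p = 0.690) and -0.15 log2 for elo-1 (SE 0.14, interval -0.48 to 0.18, exact permutation p = 0.381). Leaving out single arrays moved fat-4 from -0.21 log2 without wild type replicate 2 to 0.016 log2 without wild type replicate 3, and elo-1 from -0.23 to -0.059 log2 without the same arrays. With the sperm protein mean as a covariate fat-4 differed by -0.34 log2 (SE 0.15) and elo-1 by -0.33 log2 (SE 0.13, limma adjusted p = 0.560 for both).

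The branched-chain elongase gene elo-5 stood at 11.33, 11.76 and 11.33 log2 in n4357 n4358 and at 11.31, 11.98 and 12.17 log2 in n4503 nDf57, against 11.64, 11.12 and 11.96 log2 in wild type. The highest array belonged to n4503 nDf57 and the lowest to wild type, with wide overlap. Its difference was 0.08 log2 (SE 0.24, interval -0.47 to 0.62, exact permutation p = 0.821), and it turned to -0.15 log2 without wild type replicate 2, against 0.27 log2 without wild type replicate 3.

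**Figure D3:**
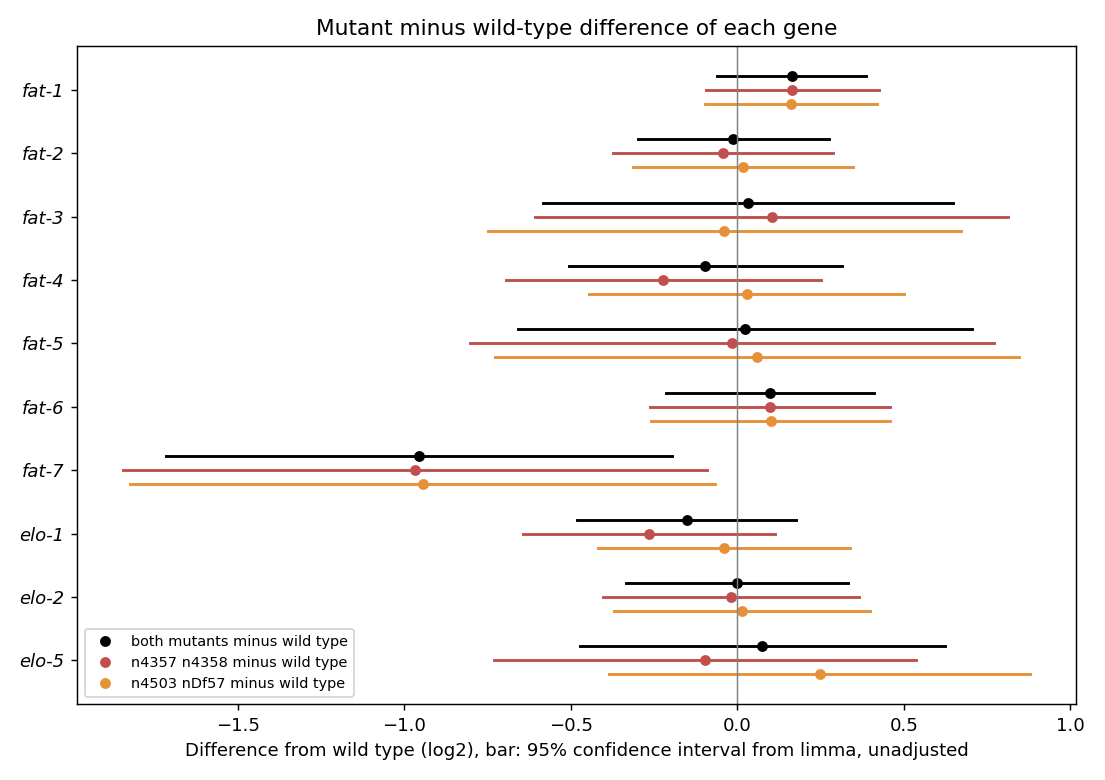
Difference of each gene from wild type (x axis, log2) for the mean of both mutants (black), n4357 n4358 (red) and n4503 nDf57 (orange), with unadjusted 95% confidence intervals from limma. The intervals of fat-7 lie below 0, at -1.72 to -0.20 log2 for both mutants, and all other intervals include 0.

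Taken singly, each mutant strain was set against the same wild-type arrays, so the paired values below share their controls. No gene of the family passed limma's adjusted test in either strain (0 of 10 in each), nor did any other probe set (0%). At an unadjusted p under 0.05 fat-7 alone passed in each, where 3.99% of all probe sets did in n4357 n4358 and 2.83% in n4503 nDf57. In n4357 n4358 the median difference of the 10 genes was -0.03 log2, with 3 positive and 7 negative, where 54.1% of all probe sets were positive and 45.9% negative. In n4503 nDf57 it was 0.02 log2, with 7 positive and 3 negative, where 54.9% of all probe sets were positive and 45.1% negative. Over all probe sets the median was 0.02 log2 in n4357 n4358 and 0.01 log2 in n4503 nDf57. fat-7 had a group mean of 8.05 ± 0.26 log2 in n4357 n4358 and 8.07 ± 0.25 log2 in n4503 nDf57, against 9.02 ± 0.87 log2 in wild type (SD, n = 3 each). Its differences were -0.97 log2 in n4357 n4358 (SE 0.38, limma adjusted p = 0.883) and -0.95 log2 in n4503 nDf57 (SE 0.38, limma adjusted p = 1). Both strains lay wholly below wild type for fat-7, as did 4.7% of all probe sets in n4357 n4358 and 2.56% in n4503 nDf57. Without wild type replicate 2 these differences became -0.48 log2 in n4357 n4358 and -0.46 log2 in n4503 nDf57. Apart from fat-7, the differences of at least 0.15 log2 in n4357 n4358 were those of fat-1 (0.17, SE 0.11), fat-4 (-0.22, SE 0.21) and elo-1 (-0.26, SE 0.17), and in n4503 nDf57 those of fat-1 (0.16, SE 0.11) and elo-5 (0.25, SE 0.28). Without wild type replicate 2 the fat-1 difference was 0.069 log2 in n4357 n4358 and 0.065 log2 in n4503 nDf57, and that of fat-4 in n4357 n4358 was -0.34 log2. Without n4357 n4358 replicate 3 fat-4 differed by -0.10 log2 in that strain, and elo-1 ran from -0.35 log2 without n4357 n4358 replicate 2 to -0.17 log2 without wild type replicate 3. In n4503 nDf57 elo-5 ran from 0.020 log2 without wild type replicate 2 to 0.50 log2 without n4503 nDf57 replicate 1.

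The strains were also compared with each other, which tests whether their differences from wild type are unequal. With limma 0 of 10 genes passed, and 0% of all probe sets. At an unadjusted p under 0.05 there were 0 of 10, against 2.47% of all probe sets. The group means of elo-5 were 11.82 ± 0.45 log2 in n4503 nDf57 and 11.48 ± 0.25 log2 in n4357 n4358, a difference of 0.34 log2 (SE 0.28, interval -0.29 to 0.98). fat-4 averaged 10.87 ± 0.36 log2 in n4503 nDf57 and 10.62 ± 0.23 log2 in n4357 n4358, a difference of 0.25 log2 (SE 0.21, interval -0.22 to 0.72). elo-1 averaged 11.21 ± 0.28 log2 in n4503 nDf57 and 10.99 ± 0.17 log2 in n4357 n4358, a difference of 0.22 log2 (SE 0.17, interval -0.15 to 0.60). Without n4503 nDf57 replicate 1 these differences were 0.60 log2 for elo-5, 0.46 for fat-4 and 0.38 for elo-1, and their lowest values with a single array left out were 0.17, 0.13 and 0.13 log2. Without the 3 arrays that stand apart they were 0.53 log2 for elo-5, 0.34 for fat-4 and 0.30 for elo-1, and none passed limma's adjusted test. fat-7 differed by 0.02 log2 (SE 0.38), with an interval of -0.85 to 0.90 that leaves room for unequal effects. In the 9 genes other than fat-7, no pair of group means differed beyond limma's unadjusted 95% interval, so the strains cannot be ordered.

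In all 3 strains the array lowest in moulting genes was also the lowest of its group for 6 of the 10 genes, namely fat-2, fat-3, fat-4, fat-6, elo-1 and elo-2, where 13.6% of all probe sets showed this. The reverse, the highest value on that array in every strain, held for 0 of the 10 genes and for 15.5% of all probe sets. Relative to the mean of the other 2 arrays of its strain, that array had a gap in fat-4 of -0.36 log2 in n4357 n4358, -0.62 in n4503 nDf57 and -0.35 in wild type. In elo-5 the gap was -0.21 log2 in n4357 n4358, -0.76 in n4503 nDf57 and -0.68 in wild type. In elo-1 it was -0.26 log2 in n4357 n4358, -0.48 in n4503 nDf57 and -0.23 in wild type. These genes thus had the same sign of gap in every strain. fat-7 had no common sign, at -0.37 log2 in n4357 n4358, 0.21 in n4503 nDf57 and 1.47 in wild type. fat-5 was the highest of its group on that array in 2 of the 3 strains. Its gaps were 0.88 log2 in n4357 n4358, -0.06 in n4503 nDf57 and 0.68 in wild type. fat-1 had gaps of mixed sign, at -0.01, 0.09 and -0.29 log2 in the same order. Both key genes of de novo fatty acid synthesis, picked out after their values were seen, were also lowest on that array in all 3 strains. fasn-1, the fatty acid synthase gene, stood at 6.41, 6.39 and 6.69 log2 on the arrays that stand apart and at 8.02 to 8.53 log2 on the other 6. pod-2, the acetyl-CoA carboxylase gene, stood at 5.68, 5.68 and 5.18 log2 on the arrays that stand apart and at 6.29 to 7.02 log2 on the other 6. Related genes did not all share this. let-767, from the fatty acid synthesis list described below, was lowest on that array in 2 of the 3 strains, and elo-6 in 0. acs-1 of the same list was highest of its group there in both mutants, at 8.37 and 8.39 log2, and lowest in wild type, at 6.55 log2. With the mean of the moulting genes as a covariate the fat-7 difference of both mutants was -0.96 log2 (SE 0.32, adjusted p = 0.695), and 0 of the 10 genes passed.

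**Figure D4:**
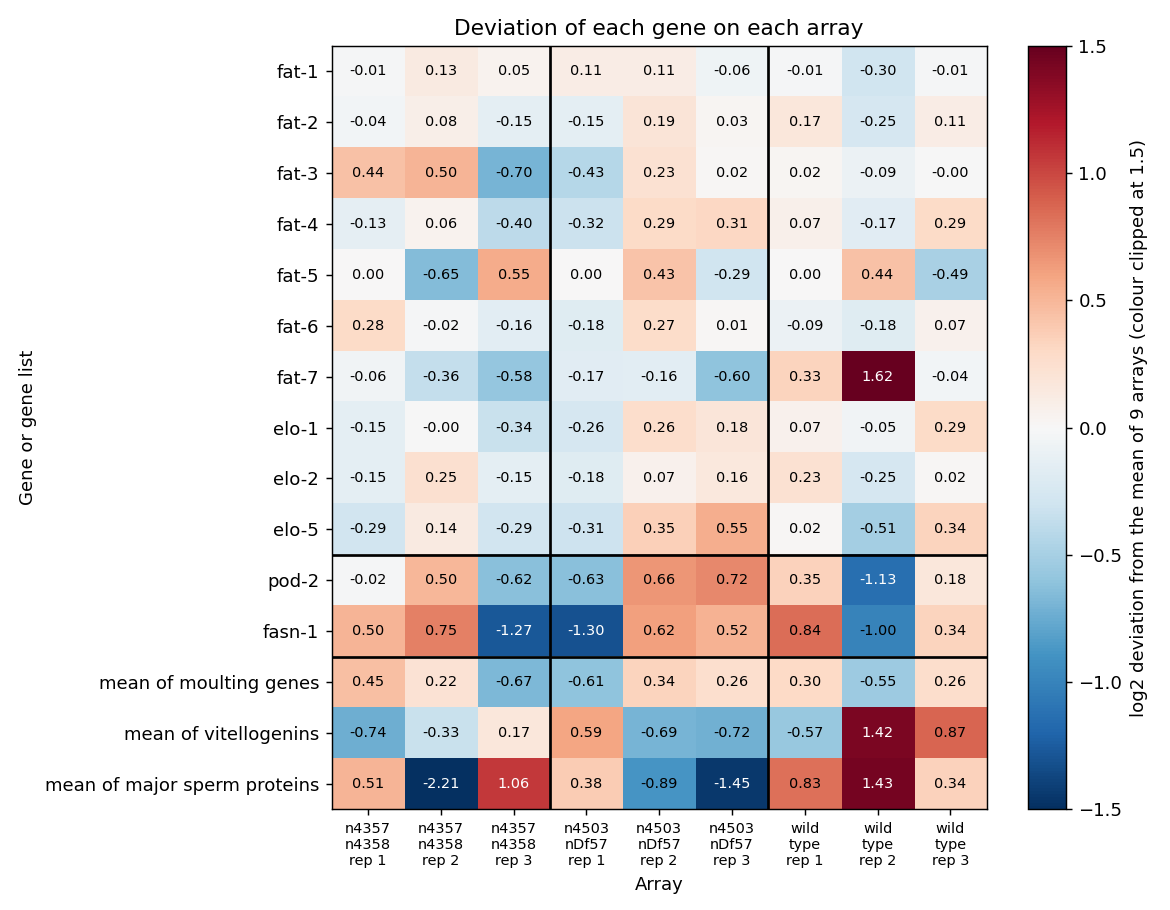
Deviation of each gene, of pod-2 and fasn-1, and of the mean of 3 gene lists from its own mean over 9 arrays (colour and printed numbers, log2), for every array (x axis). Columns n4357 n4358 rep 3, n4503 nDf57 rep 1 and wild type rep 2 are low in moulting genes, at -0.67, -0.61 and -0.55 log2, and in most desaturase and elongase genes. Among these columns fat-7 is above its own mean only on wild type rep 2, and among the others only on wild type rep 1.

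Likeness between the genes was described by Pearson's r of the log2 levels over 9 arrays, which share the variation just described, and again over the 6 arrays without those that stand apart. Of 45 pairs, 9 had r above 0.7 over 9 arrays, and 3 of these stayed above 0.7 over 6 arrays. The 3 pairs were fat-4 with elo-1 (0.973 over 9 arrays and 0.961 over 6), fat-4 with elo-5 (0.908 and 0.963) and elo-1 with elo-5 (0.822 and 0.858). They joined enzymes of long polyunsaturated chains to one of branched chains, whose gene has a probe set that can detect relatives. The neighbouring genes fat-3 and fat-4 had r of 0.572 over 9 arrays and -0.676 over 6, so their likeness rested on the arrays that stand apart. fat-1 and fat-2, also neighbours, had r of 0.487 and 0.432, and elo-5 and elo-6 had 0.650 and 0.951. fat-7 had low likeness, with r of at most 0.332 against every other gene of the family over 9 arrays, down to -0.794 against fat-1, a value that was -0.0688 over 6 arrays.

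**Figure D5:**
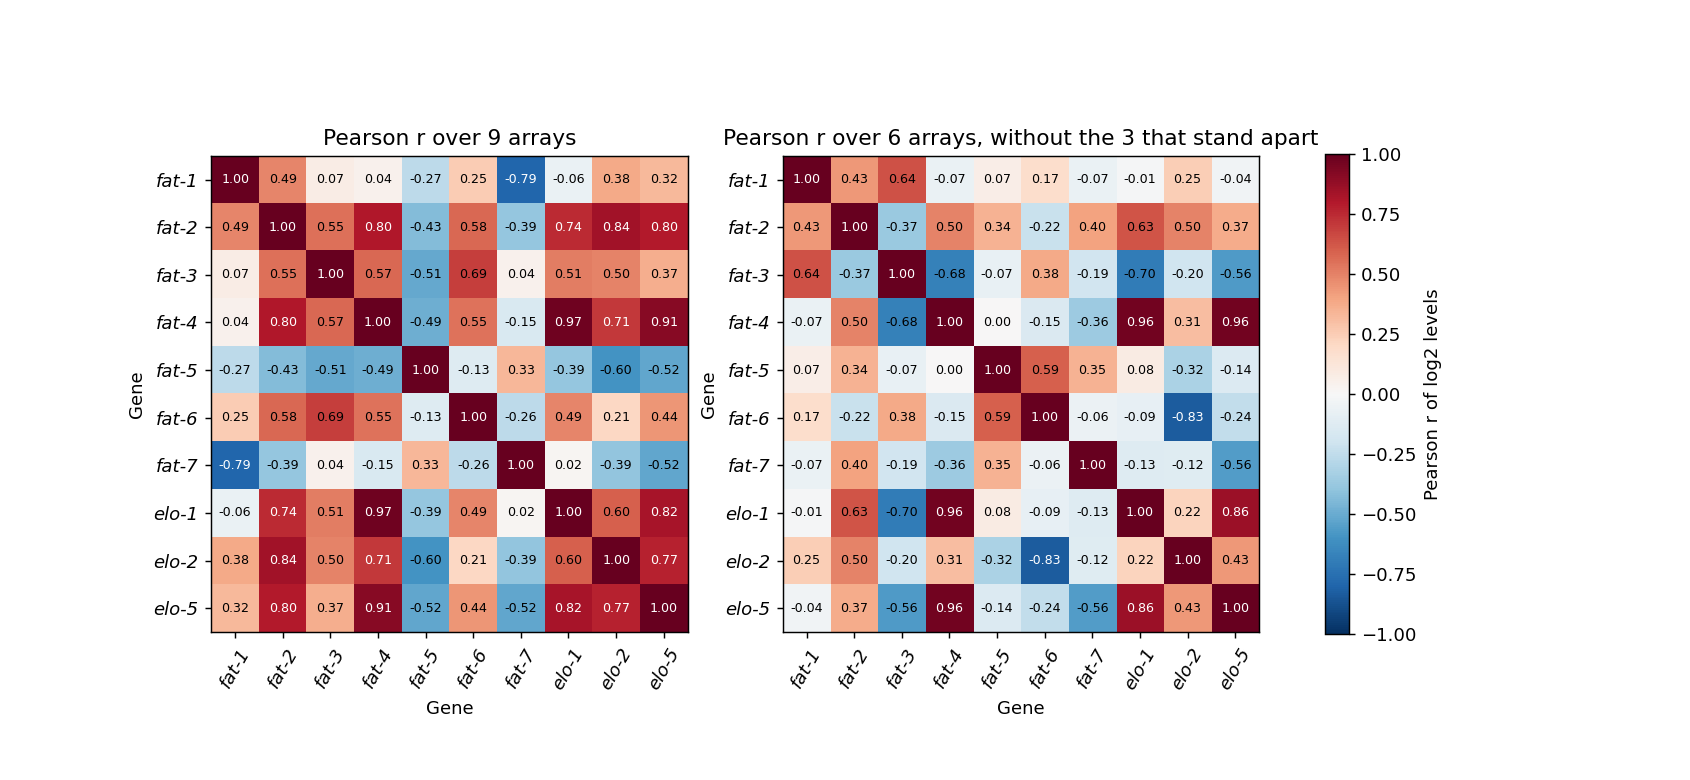
Pearson's r of log2 levels for every pair of the 10 genes over 9 arrays (left) and over the 6 arrays without those that stand apart (right), with colour from blue (negative) to red (positive). The block of fat-4, elo-1 and elo-5 is high in both panels, between 0.822 and 0.973, while fat-7 and fat-5 have mostly low or negative values on the left.

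Among all other genes with 1 symbol, the 3 most like each family member over 9 arrays were looked up. With 9 arrays many genes come close by this measure: 323 genes had r above 0.9 with fat-4, against 3 with fat-5. fat-4 and elo-1 had the same nearest gene, cst-1, a kinase of the Hippo family, at r of 0.985 and 0.979. fat-7 was nearest to ugt-66 (0.980), F21C10.9 (0.976) and ugt-33 (0.961), of which ugt-66 and ugt-33 are glucuronosyltransferase genes. On wild type replicate 2 these genes too had their highest level, with ugt-66 at 6.21 log2 there and 5.04 to 5.44 log2 on the other 8 arrays. fat-3 was nearest to srr-4 (0.988), elo-5 to F14H3.12 (0.976), fat-1 to lev-1 (0.980), fat-2 to D1005.2 (0.972), fat-6 to sel-12 (0.968), elo-2 to bcc-1 (0.947) and fat-5 to Y39E4B.11 (0.913). The mean of the 10 standardised genes was most like srp-7 (0.992), cpt-6 (0.979) and ebax-1 (0.975).

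Genes around the desaturases and elongases were read from 6 lists, each gene by its brightest probe set, and in the comparison of both mutants with wild type none passed limma's adjusted test (0% of all probe sets). Beside the counts of signs given for these lists, 56.5% of all probe sets had positive and 43.5% negative differences. All 5 other elongases measured had negative differences, with a median of -0.09 log2, but that of elo-3 was only -0.0011 log2 (SE 0.17). By strain elo-3 was positive in n4357 n4358, at 0.08 log2, and elo-6 in n4503 nDf57, at 0.14 log2. The other 4 were negative in each strain. In that list elo-4 had the widest, at 8.40 ± 0.39 log2 over the 6 mutant arrays and 8.93 ± 0.37 log2 over 3 wild-type arrays (SD), a difference of -0.53 log2 (SE 0.26, exact permutation p = 0.0952). elo-6, the partner of elo-5 in branched-chain synthesis, differed by -0.06 log2 (SE 0.12). In the list of fatty acid synthesis and the elongation cycle 11 of 13 measured genes had positive differences, with a median of 0.07 log2. The acyl-CoA synthetase gene acs-1, which acts on branched-chain fatty acids, stood at 8.07, 8.14 and 8.37 log2 in n4357 n4358 and at 8.39, 8.37 and 8.25 log2 in n4503 nDf57, against 7.87, 6.55 and 7.87 log2 in wild type. All 6 mutant arrays of acs-1 lay above wild type, as in 1.05% of all probe sets, with a difference of 0.83 log2 (SE 0.28, exact permutation p = 0.0119, limma adjusted p = 0.999). Wild type replicate 2 was far below the rest here, and without it the acs-1 difference was 0.39 log2, and 0.34 log2 without the 3 arrays that stand apart.

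The 22 measured regulators of desaturase genes and membrane fluidity had 13 positive and 9 negative differences, with a median of 0.02 log2. In worms SBP-1, MDT-15, NHR-49 and NHR-80 drive the transcription of fat-5, fat-6 and fat-7. Their genes differed by 0.20 log2 for sbp-1 (SE 0.14), 0.12 for mdt-15 (SE 0.10), 0.02 for nhr-49 (SE 0.10) and 0.16 for nhr-80 (SE 0.12), values that were looked up for this role and not by rank. acdh-11, an acyl-CoA dehydrogenase gene that acts on fat-7 expression in response to heat, had the smallest p of the list, at 8.03 ± 0.10 log2 in mutants and 8.22 ± 0.15 log2 in wild type (SD), a difference of -0.19 log2 (SE 0.10, exact permutation p = 0.0595). It became -0.10 log2 without wild type replicate 2. atfs-1, the mitochondrial stress factor, had the widest difference, 0.43 log2 (SE 0.35), which became 0.18 log2 without wild type replicate 2 and 0.67 log2 without n4357 n4358 replicate 3.

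In the 36 measured genes of phospholipid synthesis 18 differences were positive and 18 negative, with a median of 0.0043 log2. The choline kinase gene ckc-1 stood at 7.87, 7.31 and 8.07 log2 in n4357 n4358 and at 7.23, 8.31 and 8.15 log2 in n4503 nDf57, against 8.35, 8.60 and 8.79 log2 in wild type. All 6 mutant arrays of ckc-1 lay below wild type, as in 0.803% of all probe sets, with a difference of -0.76 log2 (SE 0.26, exact permutation p = 0.0476, limma adjusted p = 0.999). Fat storage and lipolysis genes had 19 positive and 9 negative differences among 28 measured, with a median of 0.04 log2. Of these the lysosomal lipase gene lipl-1 differed most, by 1.0 log2 (SE 0.81), with levels from 5.05 to 8.49 log2 in mutants and 4.40 to 7.05 log2 in wild type, and the difference ran from 0.46 log2 without wild type replicate 3 to 1.79 log2 without wild type replicate 2. Without the 3 arrays that stand apart it was 2.41 log2 (SE 0.32, limma adjusted p = 0.330). The fatty acid binding protein gene lbp-1 had the smallest p there, with a difference of 0.28 log2 (SE 0.14, exact permutation p = 0.25). Genes that use polyunsaturated fatty acids had 8 positive and 7 negative differences among 15 measured, with a median of 0.03 log2. Of these ceeh-2, an epoxide hydrolase gene, stood at 6.58 ± 0.36 log2 in mutants and 7.16 ± 0.32 log2 in wild type (SD), a difference of -0.58 log2 (SE 0.22, exact permutation p = 0.0476), which was -0.39 log2 without wild type replicate 2 and -0.20 log2 without the 3 arrays that stand apart.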

How the data were processed

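Biotin-labelled RNA made by 3' in vitro transcription was hybridised, 1 Affymetrix array per sample, per the labels. The authors deposited log2 levels, 1 per probe set, computed with RMA; limma is also named, per the submitters' processing notes, without versions. RMA equalises the distributions of arrays, so a shift of most genes would be removed.

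Groups came from the titles. Of 22625 probe sets, 77 controls were left out and 22548 tested, of which 20766 name 1 gene, 887 several and 895 none. Probe sequences were not used here. A single fit with limma 3.58.1 (R 4.3.3) took all 9 arrays, estimated each group's mean with 6 residual and 2.38 prior degrees of freedom, and used Benjamini-Hochberg adjustment over all probe sets at a threshold of 0.05. Intervals are 95% and unadjusted. Exact permutation tests were two-sided. The fit was also run on simulated data with independent noise on each array. Those data lack the shared variation inside the groups, so the run does not test the fit under it. Figures were drawn with matplotlib 3.10.9 and numpy 2.4.6 in Python 3.11.15.

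The genes, lists and tests were chosen with earlier results of these data known. The rule for named genes took all family members, in each list any called gene, the smallest p and the widest difference, and for likeness the nearest genes. In single-strain comparisons fat-7 and differences of at least 0.15 log2 are given. Precision is limited by 3 arrays per group.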

Additional observations from a re-analysis of the deposited data

How the results depend on the processing

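With 3 arrays per group, intervals of fat-3, fat-5, fat-7 and elo-5 for both mutants span more than 1 log2, so small differences cannot be resolved. Across 32 single-gene results and 675 refits, 0 crossed the adjusted threshold and 629 kept their direction. The 629 include refits that cannot change a difference, such as those with the replicate block or the filter on low levels. Whether the replicate numbers pair the samples cannot be read from these data. After group means were subtracted, correlations of same-numbered arrays ran from -0.60 to 0.40, but these also carry the shared variation inside the groups. With the replicate number as a block the count of called probe sets stayed at 0 in all 4 comparisons. In that fit fat-7 differed by -0.96 log2 (SE 0.28, limma adjusted p = 0.9996).

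The counts of called probe sets were 0 in every comparison as reported, where 815 (both mutants), 899 (n4357 n4358), 637 (n4503 nDf57) and 557 (between the strains) had an unadjusted limma p under 0.05. With array weights, which gave n4503 nDf57 replicate 2 a weight of 6.64, the counts were 2 higher and 0 lower for both mutants, 3 higher and 1 lower for n4357 n4358, 32 higher and 5 lower for n4503 nDf57, and 99 higher and 43 lower in n4503 nDf57 against n4357 n4358. Under cyclic loess, under centring on ribosomal and proteasome genes, and with the moulting covariate, 1 was called higher for both mutants and 1 for n4503 nDf57. Single arrays left out gave 0 to 1 higher for both mutants, 0 to 1 higher and 0 to 2 lower for n4503 nDf57, and 0 otherwise. The 1 came without n4357 n4358 replicate 3 and the 2 without n4503 nDf57 replicate 1. None of the called probe sets in these refits was a family member. The median difference of the family became -0.23 log2 for both mutants and -0.18 for n4503 nDf57 with the sperm protein covariate, and -0.17 log2 for both mutants and -0.14 for n4503 nDf57 with the vitellogenin covariate, which was added after seeing the data. Single arrays left out moved it from -0.13 to 0.06 log2 for both mutants.

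Some differences between both mutants and wild type changed sign. With array weights fat-2 was 0.055, fat-4 0.025, elo-2 0.071 and fasn-1 0.35 log2. Under centring fat-2 was 0.019 and elo-2 0.030 log2. With the sperm protein covariate fat-3 was -0.30, elo-5 -0.26 and pod-2 -0.30 log2, and elo-5 of n4503 nDf57 -0.14 log2. With the vitellogenin covariate fat-3 was -0.23, fat-6 -0.020, elo-5 -0.17 and pod-2 -0.35 log2. Without the 3 arrays that stand apart, also added later, fasn-1 was 0.011 log2, and fat-7 between the strains was -0.17 log2, against -0.067 under cyclic loess. With single arrays left out the ranges across 0 were -0.14 to 0.068 log2 for fat-2, -0.0735 to 0.23 for fat-3, -0.21 to 0.016 for fat-4, -0.21 to 0.25 for fat-5, -0.13 to 0.11 for elo-2, -0.15 to 0.27 for elo-5, -0.12 to 0.013 for elo-6, -0.16 to 0.58 for pod-2, -0.62 to 0.30 for fasn-1, and -0.10 to 0.17 for fat-7 between the strains. The cause of these shifts was not tested. Without shared probe sets fat-6, elo-5, elo-6, atfs-1, pod-2 and ceeh-2 have no value.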

Other observations

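The level of fat-7 relative to fat-6 on the same array, a quantity chosen after the values were seen, was -3.09, -3.09 and -3.17 log2 in n4357 n4358 and -2.74, -3.18 and -3.37 log2 in n4503 nDf57, against -2.33, -0.96 and -2.86 log2 in wild type. These are differences between different probe sets, so only their spread between arrays can be read. The strains overlapped, since n4503 nDf57 replicate 1 lay above wild type replicate 3.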
